A study of Mus musculus with 6 samples.

Results

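Lymphatic endothelial nuclei of the mouse left ventricle were examined by single-nucleus RNA sequencing. A nucleus was taken as a member when it had at least 500 UMIs (unique molecular identifiers, 1 per captured transcript), at least 300 detected genes and at most 5% mitochondrial UMIs. It also needed at least 3 UMIs summed over the marker genes Mmrn1, Reln, Ccl21a, Flt4 and Tbx1, of which at least 2 came from Mmrn1 or Reln. Nuclei with more than 1 UMI of Pdgfra and Rgs5 together, which mark fibroblasts and pericytes, or with 1% or more of their UMIs in the cardiomyocyte genes Ttn, Ryr2 and Myh6 were left out. The rule gave 1190 members among 48438 nuclei passing quality control, which came from 69249 barcodes. The members were therefore chosen by their own expression, and the levels of the 5 marker genes are given as a description without a test.

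Lymphatic capillaries and collecting vessels of the heart take up fluid, macromolecules and immune cells from the myocardial interstitium and return them to the venous circulation. The transcription factor Prox1 sets and maintains lymphatic identity, and the receptor Flt4 (VEGFR-3) with its co-receptor Nrp2 carries the growth signal of Vegfc and Vegfd. Lyve1 is a hyaluronan receptor of initial lymphatics, Pdpn encodes podoplanin, and Ccl21a is a chemokine that guides dendritic cells and T cells into the vessel. Mmrn1 encodes multimerin 1 and Reln encodes reelin, both secreted glycoproteins of lymphatic endothelium.

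The 6 libraries came from the left ventricles of male mice aged 12 weeks, with 2 libraries in each of 3 groups. WT-CD mice were wild-type on a control diet, R403Q-CD mice were Myh6+/R404Q (the R403Q model of hypertrophic cardiomyopathy) and were fed likewise, while R403Q-EMPA mice shared that genotype and received empagliflozin (EMPA), which blocks the sodium-glucose cotransporter SGLT2, in their food. The food contained 0.15 mg EMPA per g, a dose near 15 mg/kg, and the labels give 9 to 10 weeks as the age at the start of feeding. They also name a feeding period longer than the span between these ages, so the age at collection or the time on EMPA is uncertain in every comparison. The mutated Myh6 is a myosin heavy chain of cardiomyocytes, and the labels do not say that the 2 libraries of a group came from separate mice, so p-values measure the spread between these libraries.

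The libraries held 31787308 to 45397128 UMIs and 10032 to 13110 barcodes. Members had a median of 3297.5 UMIs and 1804 genes, and their summed UMIs per library ranged from 398349 in R403Q-EMPA replicate 2 to 1006296 in R403Q-EMPA replicate 1. A doublet caller predicted 3.68% to 6.45% of nuclei per library as doublets, and 79 of the members were among them. Of all barcodes, 538 sequences occurred in more than 1 library, and 1 sequence was that of a member in both WT-CD replicate 1 and R403Q-CD replicate 1. The 3 comparisons below ask how members differed with the mutation (R403Q-CD against WT-CD), with EMPA in mutant hearts (R403Q-EMPA against R403Q-CD) and between treated mutant and wild-type hearts (R403Q-EMPA against WT-CD). The comparisons share groups, so their gene lists are not independent of each other.

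The gate genes were present in every library. Levels are given as CPM, the UMIs of a gene relative to all UMIs summed over the members of a library, on the standard counts-per-million scale. Mmrn1 ranged from 1691 to 2239 CPM, Reln from 3203 to 3927, Flt4 from 1007 to 1153 and Tbx1, a T-box transcription factor that acts upstream of Flt4, from 150 to 226 over the 6 libraries. Ccl21a was the marker that varied most, at 5660 and 1579 CPM in the 2 WT-CD libraries, at 2490 and 2655 in R403Q-CD libraries and at 2685 and 2591 in R403Q-EMPA. The 2 wild-type libraries held both the highest and the lowest value, so the groups overlapped. Ccl21a has near-identical copies in the mouse genome, and counts of such copies cannot be told apart here.

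Markers outside the gate checked the label. Prox1 lay between 924 and 1211 CPM in members and between 2.79 and 19.7 CPM in blood endothelial nuclei of the same libraries, which were gated by Flt1 and other endothelial genes with no UMI of Mmrn1, Reln, Npr3 or Tbx1. Lyve1 ranged from 589 to 1358 CPM against 12.1 to 46.6, Pdpn from 146 to 213 against 0.618 to 4.40, and Mrc1, the mannose receptor shared with macrophages, from 191 to 402.6 against 22.4 to 51.1. Nrp2 was also present in blood endothelial nuclei, at 670 to 931 CPM against 1278 to 1742 in members. At least 1 UMI of Prox1 was found in 84.1% of members and 1.85% of blood endothelial nuclei, and at least 1 UMI of Lyve1 in 75.6% and 3.14%. The plot of marker levels shows that ranges of members and blood endothelial nuclei were apart for each of these 5 genes.

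**Figure D1:**
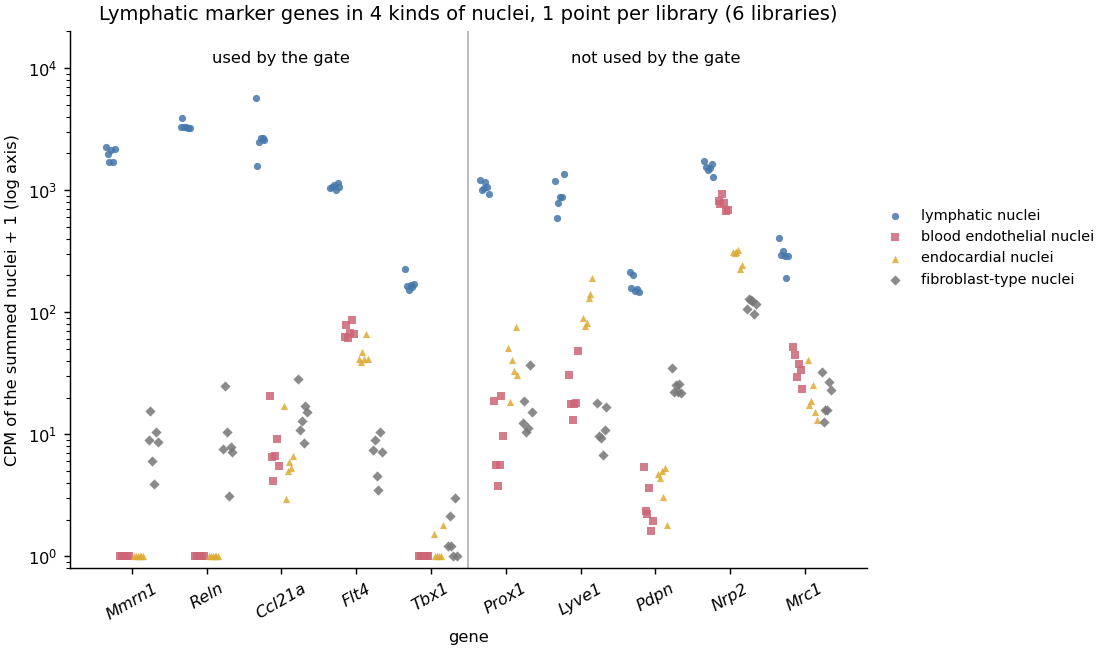
Level of lymphatic marker genes in lymphatic, blood endothelial, endocardial and fibroblast-type nuclei, as CPM of the summed nuclei plus 1 on a log axis, with 1 point per library (6 libraries). Gate genes stand left of the line and genes the gate did not use stand right of it, where Prox1 in members (924 to 1211 CPM) sits far above the blood endothelial nuclei (2.79 to 19.7 CPM); zeros of Mmrn1, Reln and Tbx1 in blood endothelial nuclei follow from their gate.

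Most members lay well inside the threshold. The median was 32 marker UMIs (range 3 to 203), and 1095 members (92.0%) had 10 or more. The 35 members just inside, with 3 or 4 marker UMIs, had 321 CPM of Prox1, against 1136 CPM in members with 10 or more. WT-CD replicate 1 held 9 of these 35 members and 25 of their 35 Prox1 UMIs, so the 321 CPM rests mostly on that library. Just outside, 15 nuclei with 3 or more marker UMIs but only 1 of Mmrn1 or Reln had 449 CPM of Prox1 together with 2297 CPM of Flt1, and 34 nuclei with 2 marker UMIs had 133 CPM of Prox1. R403Q-EMPA replicate 1 held 9 of those 15 nuclei, with 20 of their 25 Prox1 UMIs and 97 of their 128 Flt1 UMIs. A further 116 nuclei met the marker rule and were removed by the fibroblast, pericyte or cardiomyocyte limits. They held 503 CPM of Prox1 and a mean of 7785 UMIs per nucleus, against 3730 in members with 10 or more marker UMIs.

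Against blood endothelial nuclei of the same library, members carried a broad set of genes that the gate did not use. Of 4034 genes with at least 20 UMIs in members of every library, 307 were higher by more than 1 on the log2 scale (with a pseudocount of 10 CPM) in all 6 libraries. Of 10222 genes with at least 20 UMIs in blood endothelial nuclei of every library, 369 were lower by more than 1 in all 6. Because the gates chose both kinds of nuclei by expression, these counts describe the members and were not tested.

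The genes highest in members by their lowest within-library ratio were Apba2, Tc2n, Pld5, Prox1, Maf, Pard6g, Plce1, Col23a1, Ston2, Lyve1, Sh3gl3, Srgap3, Gpm6a, Slc45a3 and Fndc1. Apba2, which encodes an adaptor of the amyloid precursor protein, ranged from 444 to 676 CPM in members and from 0 to 0.733 in blood endothelial nuclei. Tc2n, a C2-domain gene, ranged from 408 to 642 CPM against 0.244 to 0.823. Maf, a transcription factor of lymphatic and immune cells, ranged from 644 to 995 CPM against 9.57 to 20.8, and Plce1, a phospholipase C, from 1201 to 1730 against 18.0 to 32.0. These ranges left no overlap between the 2 kinds of nuclei.

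The genes lowest in members were Mcf2l, Dach1, Ccdc85a, Cd36, Mecom, Myo10, Samd12, Ablim1, Tspan7 and Gm12002. Cd36, the fatty acid translocase of capillary endothelium, stood at 106 to 148 CPM in members and 1843 to 2338 in blood endothelial nuclei. Fabp4, a fatty acid binding protein, showed the same order, at 67.0 to 182 CPM against 1013 to 2225. Mecom, a transcription factor gene of arterial endothelium, ranged from 111 to 210 CPM against 2272 to 3184.

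Receptors and ligands of lymphatic growth split between the 2 endothelia. Kdr (VEGFR-2) was at similar levels, at 416 to 667 CPM in members and 319 to 483 in blood endothelial nuclei, and so was Calcrl, the adrenomedullin receptor, at 768 to 1145 against 744 to 953. Nrp1, the co-receptor that partners Kdr in blood vessels, was low in members (65.3 to 155 CPM) and high in blood endothelial nuclei (1371 to 1936). The angiopoietin receptor Tek was lower in members, at 227 to 315 CPM against 701 to 804. The ligand Vegfc was found mainly outside the members, at 13.8 to 82.0 CPM in them and 443 to 898 in blood endothelial nuclei.

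Genes of valves, junctions and leukocyte traffic also set the members apart. Itga9, the integrin subunit of lymphatic valves, ranged from 1135 to 1649 CPM against 283 to 364 in blood endothelial nuclei, and Celsr1, a planar polarity cadherin of valve cells, from 41.1 to 79.5 against 0.726 to 4.01. Foxc2, the forkhead factor of collecting vessels and valves, was low in members at 13.3 to 25.6 CPM, against 1.74 to 4.84. Il7, a survival factor for lymphocytes, ranged from 163 to 233 CPM against 0.436 to 2.37, and Ackr2, a chemokine scavenger, from 132 to 185 against 5.28 to 14.3. Of the junction genes, Cldn5 was higher in members (158 to 315 CPM against 12.9 to 40.4) and Jam2 was lower (21.6 to 68.1 against 519 to 717). Slc5a2, which encodes the target of EMPA, had 2 UMIs over all members, both in R403Q-EMPA replicate 1, and Slc5a1 had none.

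Members were not uniform. Clustering of the 1190 nuclei gave 8 sub-clusters, which are called by number and described by their leading genes. Sub-cluster 1 (346 nuclei) was led by Cacna1e, Nrxn3, Clca3a1, Met and Foxp2, sub-cluster 2 (395 nuclei) by Igfbp5, Hdac9, Nts and Ackr3, and sub-cluster 7 (202 nuclei) by Rbfox1, Stab2 and Col23a1. Sub-cluster 5 (111 nuclei) was led by the sodium channel gene Scn3a with Angpt2, Tnc, Thbs1, Pdgfb, Bmp6 and Adm, several of which encode secreted vascular growth factors. Prox1 stood at 999 to 1609 CPM and Flt4 at 973 to 1361 CPM in these 4 sub-clusters.

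The other 4 sub-clusters, with 136 members (11.4%, and 9.14% to 13.9% by library), carried genes of other cell types. Sub-cluster 3 (20 nuclei, 14 of them predicted doublets) was led by the macrophage genes F13a1, Cd163, Adgre1 and Csf1r, and sub-cluster 4 (47 nuclei, 32 doublets) by the blood endothelial and endocardial genes Flt1, Npr3, Dach1 and Mecom. Sub-cluster 6 (47 nuclei, 25 doublets) was led by Thbs4, Col8a1, Itgbl1, Gpc6 and Lama2, and its fibroblast gene Dcn stood at 1245 CPM against 123 to 217 in the others. Sub-cluster 8 (22 nuclei, 1 doublet) was led by Slc35f1, Cadm2, Cdh19, Nkain2 and Chl1. It had no UMI of Prox1, Mmrn1, Flt4 or Lyve1 and 1843 CPM of Reln, so for these 22 nuclei the data go against the lymphatic label. Where a gene still passed the filter on low counts, results that rest on these nuclei are also given with the 4 sub-clusters and all predicted doublets removed. That kept 1047 members and is called mixed nuclei removed, and for some other genes the share of UMIs in the mixed sub-clusters is given. The sub-clusters were found from expression, so their sizes were not compared between groups.

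**Figure D2:**
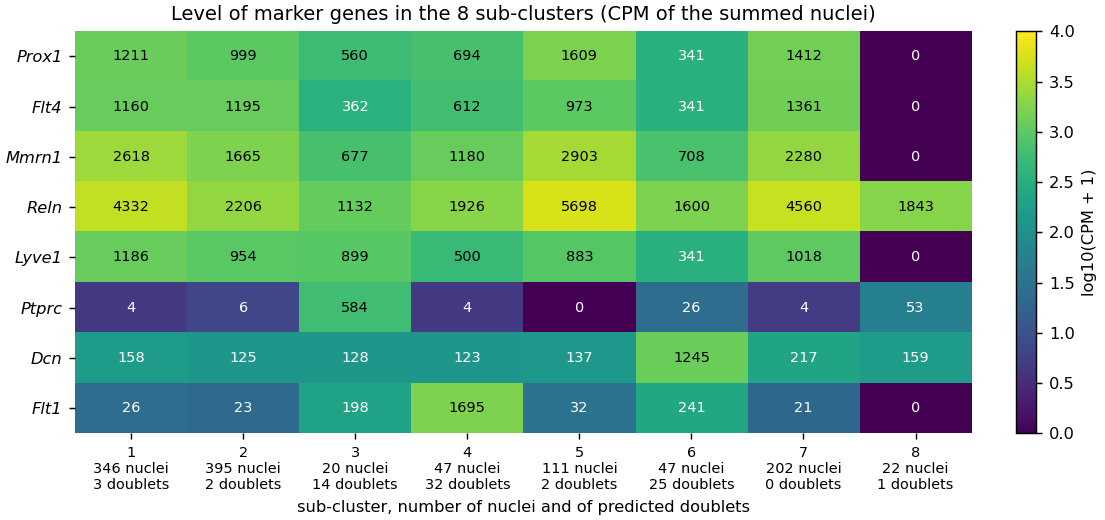
Level of 8 genes (rows) in the 8 sub-clusters of members (columns), as CPM of the summed nuclei, printed in each cell and coloured by log10 of CPM plus 1; the number of nuclei and of predicted doublets stands under each column. Prox1 is at 999 to 1609 CPM in sub-clusters 1, 2, 5 and 7 and at 0 in sub-cluster 8, Ptprc peaks in sub-cluster 3, Flt1 in sub-cluster 4 and Dcn in sub-cluster 6.

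The share of members among all nuclei overlapped between groups, and among endothelial nuclei R403Q-EMPA and R403Q-CD did not overlap. It was 3.03% (95% Wilson interval 2.71 to 3.38) and 2.07% (1.78 to 2.40) in WT-CD, 1.95% (1.67 to 2.28) and 2.40% (2.07 to 2.77) in R403Q-CD, and 3.02% (2.67 to 3.41) and 2.03% (1.72 to 2.39) in R403Q-EMPA. WT-CD libraries averaged 2.55% ± 0.679 (SD, n = 2), R403Q-CD libraries 2.17% ± 0.313 and R403Q-EMPA libraries 2.52% ± 0.702, and all groups overlapped. The differences of -0.374, 0.351 and -0.0237 percentage points in the 3 comparisons each had p = 0.667 in a two-sided exact permutation test, where 2 against 2 libraries cannot go below 0.33. Of gated endothelial nuclei alone, members made up 9.21% ± 4.74 when averaged over WT-CD libraries, against 6.35% ± 0.649 over R403Q-CD and 7.17% ± 0.101 over R403Q-EMPA libraries. There both R403Q-EMPA libraries (7.09% and 7.24%) were above both R403Q-CD libraries (5.89% and 6.80%), a difference of 0.820 points with a pooled SD of 0.464 and p = 0.33 in the exact permutation test, the smallest it allows. Without the mitochondrial filter, R403Q-CD (1.48% and 1.71%) was below WT-CD (2.59% and 1.81%), at a difference of -0.609 points with a pooled SD of 0.408 and the same exact p. WT-CD replicate 1 stood apart among endothelial nuclei, at 12.6% against 5.86% in WT-CD replicate 2. The intervals cover counting error only.

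**Figure D3:**
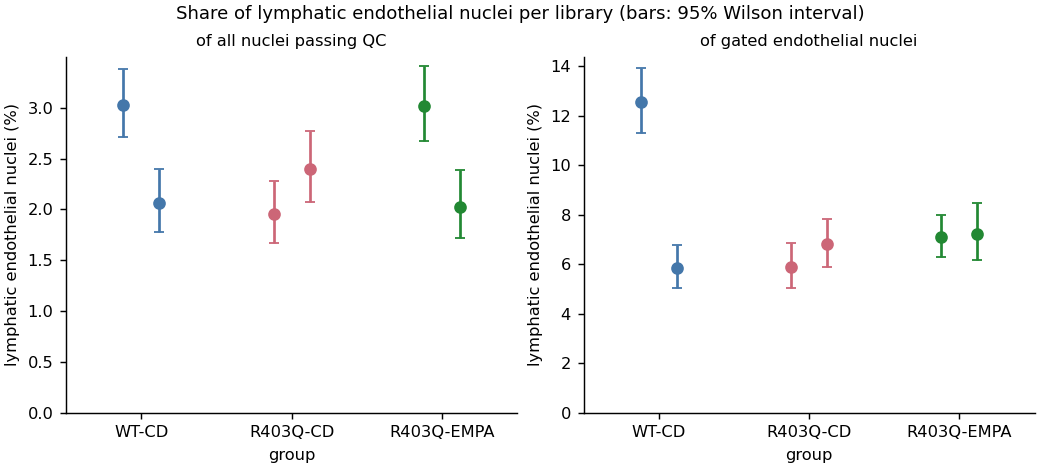
Share of lymphatic endothelial nuclei in each of 6 libraries by group, in percent of all nuclei passing quality control (left) and of gated endothelial nuclei (right), with bars for the 95% Wilson interval. Each group holds a higher and a lower library on the left, from 1.95% to 3.03%, and WT-CD replicate 1 is the highest on the right at 12.6%.

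With the mutation alone, no gene passed the threshold in members. Comparing R403Q-CD with WT-CD, 0 of 9424 tested genes (0%) had an adjusted p under 0.05 in edgeR's quasi-likelihood test with Benjamini-Hochberg adjustment, and DESeq2 also called 0. At an unadjusted p under 0.05, 142 genes were higher (1.51% of those tested) and 164 lower (1.74%). Counts differed most between the WT-CD libraries, with a chi-square per degree of freedom of 4.3, against 1.87 in R403Q-CD and 2.10 in R403Q-EMPA. All groups share 1 estimate of the spread, so 0 calls do not mean that no gene changed. The smallest p belonged to Ptn, which encodes the secreted growth factor pleiotrophin. Ptn stood at 74.6 and 68.5 CPM in WT-CD and 173 and 170 in R403Q-CD, with 115 and 136 in R403Q-EMPA. The R403Q-CD libraries were both above the WT-CD libraries, with a log2 fold change of 1.25 ± 0.22 (SE) and an adjusted p of 0.619 in the edgeR test. Without the mixed nuclei, it was 1.36 ± 0.23, with an adjusted p of 0.0928 in the edgeR test.

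The other genes with the smallest p in this comparison did not pass either. Higher values were found for Sulf1, an extracellular sulfatase, at 1.44 ± 0.35, Myrip at 2.54 ± 0.66, Stc1 (stanniocalcin 1) at 1.37 ± 0.36, Col4a3 at 2.41 ± 0.64 and Nos3, the endothelial nitric oxide synthase, at 1.08 ± 0.31. Lower values were found for Rbpj, the transcription factor of Notch signalling, at -1.08 ± 0.23, Fap at -2.36 ± 0.53, Smoc2 at -2.45 ± 0.60, Arhgap15 at -1.73 ± 0.45, Npas3 at -1.14 ± 0.31 and Grb14 at -1.47 ± 0.40. The mixed sub-clusters held 80.3% of the Sulf1 UMIs, 79.7% of Myrip, 85.7% of Col4a3, 69.1% of Fap, 49.5% of Smoc2 and 88.2% of Arhgap15. Smoc2 was -1.52 without WT-CD replicate 1, and without WT-CD replicate 2 it passed in edgeR at -2.93 (adjusted p = 0.00872). Arhgap15 was -0.99 without R403Q-CD replicate 2 and -2.86 without R403Q-CD replicate 1. Without the mixed nuclei Rbpj was -0.03 ± 0.28, Grb14 was -0.53 ± 0.49, Sulf1 was 0.72 ± 0.48 and Nos3 was 0.61 ± 0.35, while Stc1 was 1.31 ± 0.39 and Npas3 was -1.33 ± 0.31. Sub-cluster 1 held 54.3% of the Npas3 UMIs, and sub-cluster 2 held 57.0% of Stc1 and 51.3% of Ptn. For these 3 genes a change in level per nucleus and in the number of such nuclei cannot be told apart.

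Macrophage markers moved beside this comparison. The summed level of 8 macrophage genes in members was 345 and 378 CPM in WT-CD and 248 and 20.2 CPM in R403Q-CD, and all 6 tested macrophage genes had lower values, with 0 called and a median log2 fold change of -1.49 against -0.01 over all genes. All 6 tested fibroblast genes also had lower values, with a median of -0.68 and 0 called. The scavenger receptor Cd163 showed -3.26 ± 0.90, and 84.7% of its UMIs lay in the mixed sub-clusters. The part of these nuclei in the values of Rbpj and Arhgap15 was not tested beyond their removal. Leaving out a library gave 34 calls without WT-CD replicate 2, 3 without WT-CD replicate 1 and 2 without R403Q-CD replicate 1, and 0 in the other 3 fits.

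With EMPA in mutant hearts, 2 genes rose in members and none fell past the threshold. Comparing R403Q-EMPA with R403Q-CD, edgeR called 2 of 9424 genes (0.0212%), Hsph1 and P4ha1. At an unadjusted p under 0.05, 301 genes were higher (3.19%) and 261 lower (2.77%). Hsph1 encodes a large cytosolic heat shock protein that acts as a nucleotide exchange factor of HSP70. It stood at 16.0 and 13.7 CPM in WT-CD, at 21.6 and 27.8 in R403Q-CD libraries and at 151 and 143 in R403Q-EMPA. Both EMPA libraries were above the other 4, and the log2 fold change was 2.55 ± 0.27 with an adjusted p of 0.00369 in edgeR's test.

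P4ha1 encodes a catalytic subunit of collagen prolyl 4-hydroxylase and is a known target of hypoxia signalling. It stood at 144 and 137 CPM in WT-CD, at 156 and 156 in R403Q-CD libraries and at 448 and 387 in R403Q-EMPA, again with both EMPA libraries above the rest. The log2 fold change was 1.41 ± 0.19 with an adjusted p of 0.0216 in edgeR's test. The Hsph1 UMIs of R403Q-EMPA replicate 1 lay in 96 of its 249 members, with at most 5 in 1 nucleus, and its P4ha1 UMIs in 178 members, with at most 11. Both genes kept their size without the mixed nuclei, at 2.57 ± 0.31 and 1.35 ± 0.20. Without R403Q-CD replicate 1 or 2, the count fell to 0 and the adjusted p of Hsph1 was 0.0993 and 0.165 in edgeR, while leaving out WT-CD replicate 1 or 2 or R403Q-EMPA replicate 2 gave 87, 86 and 26 calls. P4ha1 also lost its call without R403Q-EMPA replicate 1, at 1.30 and an adjusted p of 0.274 in edgeR.

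**Figure D4:**
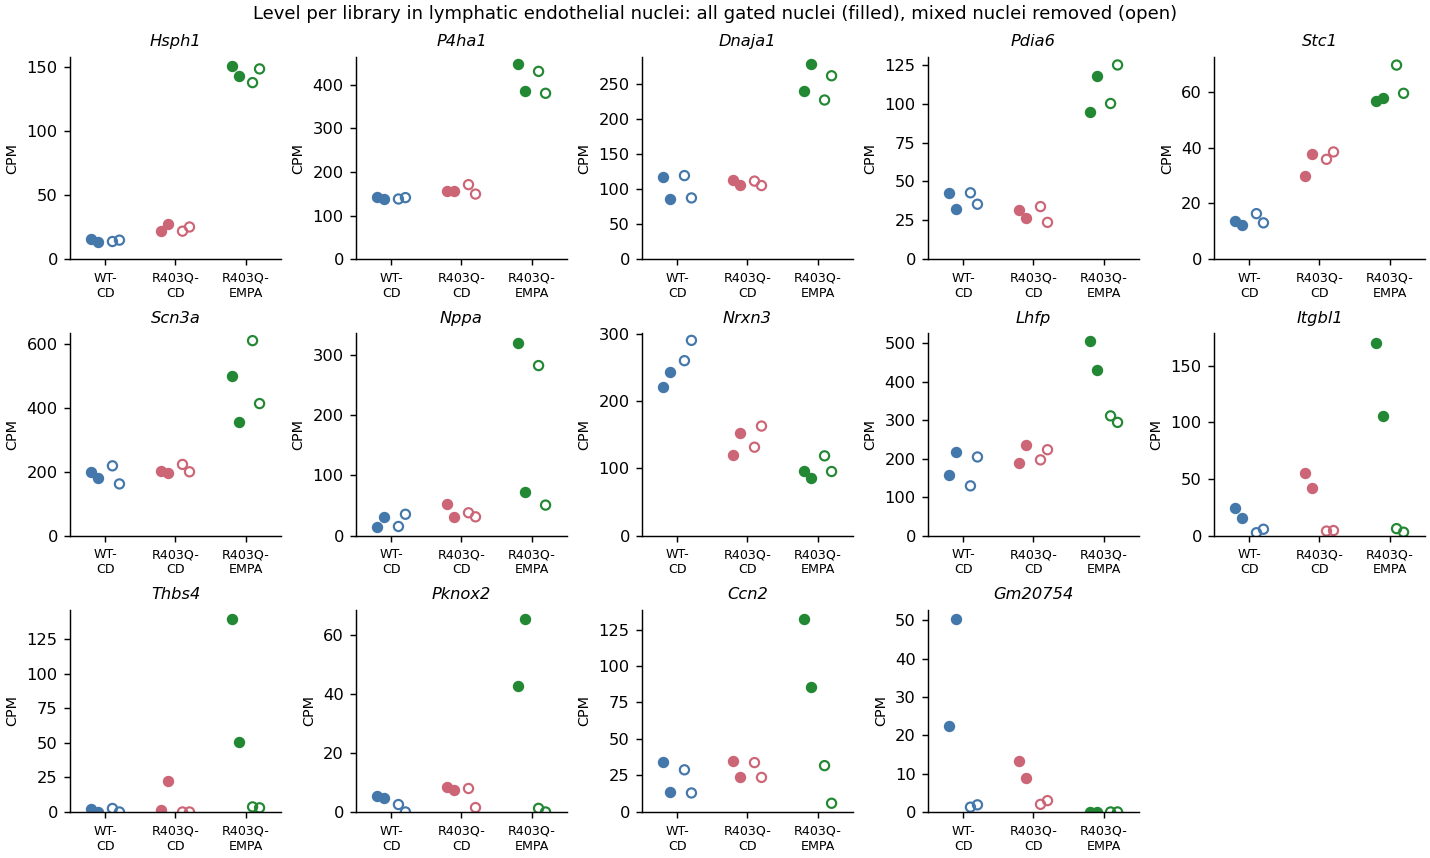
Level of 14 genes in lymphatic endothelial nuclei of each library, in CPM, by group; filled circles are all gated members and open circles are members with mixed nuclei removed. Hsph1 and P4ha1 keep their R403Q-EMPA levels in the open circles (Hsph1 138 and 149 CPM), and Itgbl1, Thbs4, Pknox2 and Ccn2 do not.

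Beyond these 2 genes, the genes with the smallest p among higher values included Col8a1, Pdia6 and Pknox2, none of which passed. Pdia6 encodes a protein disulfide isomerase of the endoplasmic reticulum. It stood at 42.6 and 32.0 CPM in WT-CD, at 31.6 and 26.5 in R403Q-CD libraries and at 94.4 and 118 in R403Q-EMPA, with a log2 fold change of 1.84 ± 0.29 and an adjusted p of 0.0573 in edgeR. Both EMPA libraries lay above the other 4. Without the mixed nuclei, Pdia6 (1.96 ± 0.32, adjusted p = 0.0153) and Scn3a (1.30 ± 0.22, adjusted p = 0.0230) passed in edgeR, which then called 5 genes in all.

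Col8a1 and Pknox2 rested on sub-cluster 6. Col8a1, a short-chain collagen, showed 3.16 ± 0.50 (adjusted p = 0.0573 in edgeR) and -0.01 ± 0.94 without the mixed nuclei, which held 88.5% of its UMIs. Pknox2, a homeobox gene, showed 2.68 ± 0.46, and 90.9% of its UMIs lay in the mixed sub-clusters. Sub-clusters were found from the expression of these same genes, so part of this loss follows from how the nuclei were chosen. Svep1, a matrix protein of lymphatic growth, had a like pattern, at 3.49 ± 0.60 with 85.3% of its UMIs in mixed nuclei. It had 119 and 13 UMIs in the R403Q-EMPA libraries, and leaving out 1 library gave 2.17 to 4.00.

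Among lower values, the genes with the smallest p included Kcnh8, Stk32a, 4930578G10Rik, Rnf220 and Itih5, and none passed. The non-coding 4930578G10Rik stood at 507 and 690 CPM in WT-CD, at 609 and 609 in R403Q-CD libraries and at 298 and 361 in R403Q-EMPA. Both EMPA libraries were the lowest, at -0.91 ± 0.21 with an adjusted p of 0.227 in edgeR, and -0.95 ± 0.21 without the mixed nuclei. Rnf220, a ubiquitin ligase, showed -1.19 ± 0.28, and -0.67 ± 0.30 without the mixed nuclei. Itih5, a hyaluronan-binding matrix gene, showed -1.05 ± 0.25, and -0.92 ± 0.25 without them, and was -0.64 without R403Q-EMPA replicate 1. Sub-cluster 2, which Itih5 helped to define, held 58.9% of its UMIs, so level per nucleus and number of such nuclei cannot be told apart. Leaving out WT-CD replicate 1 or 2, which are in neither group compared but enter the shared estimate of spread, 4930578G10Rik, Rnf220 and Itih5 passed in edgeR, with adjusted p-values of 0.00196 to 0.0406. In the fits without a library of the groups compared, 4930578G10Rik did not pass (adjusted p of 0.228 to 0.999 in edgeR). All UMIs of Kcnh8 and Stk32a came from sub-cluster 8, whose nuclei lacked Prox1.

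Of 12 tested genes of the heat shock and immediate early list, 8 had higher and 4 had lower values in R403Q-EMPA than in R403Q-CD. Of these, 1 was called and 6 were higher at an unadjusted p under 0.05, where 3.19% of all genes were, with a median log2 fold change of 0.96 against -0.00043 over all 9424 genes. This list, like the others, was chosen with earlier results of these data known, so such contrasts are descriptions and not tests. Hspa8, the constitutive HSC70, stood at 1.14 ± 0.27, Hsp90aa1 at 1.16 ± 0.35 and Hspb1 (HSP27) at 1.58 ± 0.50. Hspa1a (2.95 ± 0.79) and Hspa1b (2.59 ± 0.61) encode inducible HSP70 and are near-identical, so their separate counts are uncertain. None of these 5 passed the adjusted threshold in members. In blood endothelial nuclei of the same libraries all 5 passed in edgeR. They stood there at 5.16 ± 0.36 (Hspa1a), 5.93 ± 0.38 (Hspa1b), 1.09 ± 0.16 (Hspa8), 1.74 ± 0.18 (Hsp90aa1) and 1.93 ± 0.31 (Hspb1). The values of Jun, Junb, Egr1, Klf2 and Klf4, the other kind of gene in the list, lay between -0.21 and 0.20, a division made after the values were seen.

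Clock genes had values in opposite directions. Of 14 tested genes, 6 were lower and 1 was higher at an unadjusted p under 0.05 against R403Q-CD, 0 were called, and the median log2 fold change was -0.54. Over all genes tested, 2.77% were lower and 3.19% higher at that p, with a median of -0.00043. The clock list too was chosen with earlier results of these data known, so this contrast is a description. Arntl, which encodes the clock activator BMAL1, stood at 10.7 and 25.9 CPM in WT-CD, at 21.6 and 10.1 in R403Q-CD libraries and at 49.7 and 55.2 in R403Q-EMPA, at 1.74 ± 0.47. Dbp, an output gene that BMAL1 drives, stood at 57.5 and 41.1, 28.3 and 45.4, and 14.9 and 15.1 CPM in the same order, at -1.32 ± 0.40. Hlf (-1.66 ± 0.50), Nr1d2 (-0.87 ± 0.23), Per1 (-0.78 ± 0.31) and Tef (-0.70 ± 0.22) also had lower values. Adjusted p-values of the named clock genes in members were 0.325 or more in edgeR in this comparison. In blood endothelial nuclei of the same libraries, Arntl was 2.38 ± 0.24 (adjusted p = 0.00528 in edgeR) and Tef -0.71 ± 0.12 (adjusted p = 0.0381). Nr1d2 (-0.85 ± 0.17), Dbp (-1.43 ± 0.40), Hlf (-0.97 ± 0.25) and Per1 (-0.30 ± 0.16) were also lower there and did not pass. The labels give no time of day of tissue collection, and its part in these values was not tested.

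**Figure D5:**
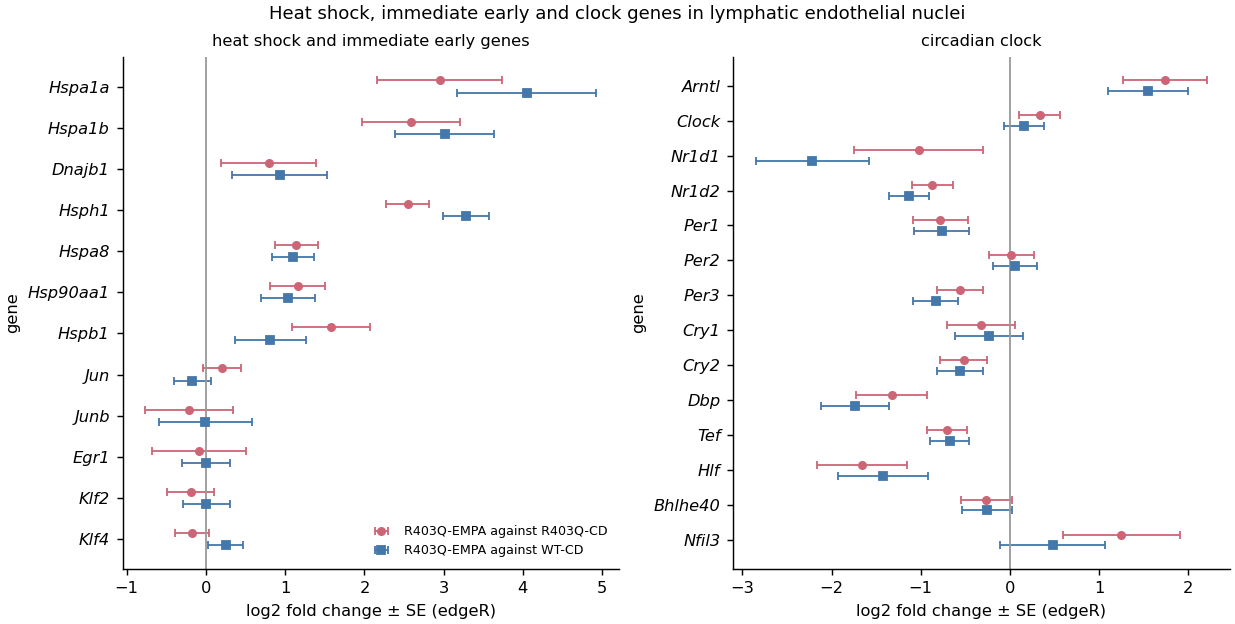
Log2 fold change with standard error (edgeR) of tested heat shock and immediate early genes (left) and clock genes (right) in lymphatic endothelial nuclei, for R403Q-EMPA against R403Q-CD (circles) and against WT-CD (squares); the 2 comparisons share the R403Q-EMPA libraries. Hsph1 at 2.55 and 3.28 is the gene of these lists that passed, Arntl lies right of 0 at 1.74 and 1.55, and Dbp lies left of 0 at -1.32 and -1.74.

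Comparing treated mutant with wild-type hearts, 13 of 9424 genes (0.138%) were called in members, 11 higher and 2 lower. At an unadjusted p under 0.05, 325 genes were higher (3.45%) and 353 lower (3.75%). Hsph1 had the smallest p, at 3.28 ± 0.29 with an adjusted p of 0.000381 in edgeR, and was called in each of the 6 fits that left out 1 library. P4ha1 rose by 1.56 ± 0.19 (adjusted p = 0.00483 in edgeR) and was called in 5 of the 6, failing without R403Q-EMPA replicate 1 at 1.46 and an adjusted p of 0.0930. Dnaja1, an HSP40 co-chaperone, was named after its values were seen. It stood at 117 and 85.3 CPM in WT-CD, at 113 and 106 in R403Q-CD libraries and at 239 and 279 in R403Q-EMPA, and rose by 1.32 ± 0.22 (adjusted p = 0.0409 in edgeR). In blood endothelial nuclei Dnaja1 rose by 1.79 ± 0.23 (adjusted p = 0.0144 in edgeR).

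Stc1, a secreted glycoprotein with a known hypoxia response, rose by 2.10 ± 0.35 against WT-CD (adjusted p = 0.0409 in edgeR). It stood at 13.8 and 12.2 CPM in WT-CD, at 29.96 and 37.8 in R403Q-CD libraries and at 56.6 and 57.7 in R403Q-EMPA, so the R403Q-CD libraries lay between the other groups. Scn3a, a neuronal-type sodium channel gene named after its values were seen, stood at 200 and 180, 201 and 197, and 499 and 356 CPM in the same order and rose by 1.17 ± 0.20 (adjusted p = 0.0482 in edgeR). Sub-cluster 5, which Scn3a and Angpt2 led, held 59.5% of all UMIs of either gene. A higher level per nucleus and more nuclei of that kind cannot be told apart in these sums, and since the sub-cluster was found from these genes, its size was not compared between groups. In R403Q-EMPA replicate 1, 1 nucleus held 78 of the 502 Scn3a UMIs.

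Nrxn3, which encodes neurexin 3, a cell adhesion protein best known from synapses, fell by 1.35 ± 0.22 against WT-CD on the log2 scale (adjusted p = 0.0409 in edgeR). It stood at 220 and 244 CPM in WT-CD, at 120 and 153 in R403Q-CD libraries and at 96.4 and 85.4 in R403Q-EMPA, and sub-cluster 1, which Nrxn3 helped to define, held 65.7% of its UMIs, so the same limit applies. Both R403Q-CD libraries were below both WT-CD libraries too, at -0.77 ± 0.21, which did not pass in that comparison. The calls of Dnaja1, Stc1, Scn3a and Nrxn3 each rested on more than 1 library. Each was lost without R403Q-CD replicate 1, R403Q-CD replicate 2 or R403Q-EMPA replicate 1. Without the last of these, edgeR gave 1.45 (adjusted p = 0.220) for Dnaja1, 2.12 (adjusted p = 0.373) for Stc1, 0.90 (adjusted p = 0.641) for Scn3a and -1.44 (adjusted p = 0.373) for Nrxn3. Dnaja1, Stc1 and Nrxn3 were also lost without R403Q-EMPA replicate 2. Lower values that did not pass were found for Necab1 (-2.53 ± 0.48), Rarb, a retinoic acid receptor (-1.005 ± 0.20), Grb14 (-2.20 ± 0.44, and -1.34 ± 0.55 without the mixed nuclei) and Dlgap1 (-4.20 ± 0.77), the last with 86.2% of its UMIs in mixed nuclei.

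The cardiac natriuretic peptide gene Nppa rose by 3.28 ± 0.57 against WT-CD (adjusted p = 0.0482 in edgeR). It stood at 13.8 and 30.5 CPM in WT-CD, at 51.6 and 31.5 in R403Q-CD libraries and at 320 and 72.8 in R403Q-EMPA, so the 2 EMPA libraries differed widely. Without R403Q-EMPA replicate 1 the value was 1.76 and the adjusted p in edgeR 0.662. Like levels were seen in other nuclei of the same libraries. Blood endothelial nuclei had 16.6 and 9.71, 64.3 and 53.0, and 427 and 77.0 CPM in the same order, and fibroblast-type nuclei had 8.68 and 10.4, 41.2 and 39.1, and 316 and 49.5 CPM. Without the genes that the gate limits, the summed level of the cardiomyocyte list in members was 1045 and 682 CPM in WT-CD, at 1132 and 960 in R403Q-CD libraries and at 1258 and 1157 in R403Q-EMPA. WT-CD and R403Q-CD overlapped, both R403Q-EMPA libraries were the highest, and the part of cardiomyocyte RNA in the Nppa value was not tested.

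Most of the other called genes of this comparison had the larger part of their UMIs in mixed nuclei, and Lhfp had not. Itgbl1 (2.78 ± 0.33), Thbs4 (6.15 ± 0.90), Pknox2 (3.33 ± 0.48) and Ccn2 (2.15 ± 0.37) had 94.6%, 96.7%, 90.9% and 62.5% of their UMIs in the mixed sub-clusters. Without R403Q-EMPA replicate 1, none of the 4 passed, at adjusted p-values in edgeR of 0.0764 for Itgbl1, 0.373 for Thbs4, 0.115 for Pknox2 and 0.532 for Ccn2. Thbs4, a secreted thrombospondin, had 181 UMIs in 19 nuclei, with 56 in 1 nucleus of R403Q-EMPA replicate 1. Without the mixed nuclei Itgbl1 stood at 2.51 to 6.10 CPM in all 6 libraries, and Ccn2, a matricellular protein also called connective tissue growth factor, showed 0.04 ± 0.53. Lhfp, named after its values were seen, had 35.0% of its UMIs in the mixed sub-clusters. It rose by 1.31 ± 0.22 with all members and showed 0.87 ± 0.23 (adjusted p = 0.170 in edgeR) without the mixed nuclei. Gm20754 had 21 and 33 UMIs in WT-CD and none in R403Q-EMPA, which makes it at least 15.8-fold lower with a floor of 3 counts over the group, and 92.8% of its UMIs came from sub-cluster 8.

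Of the markers of these other cells, the Schwann cell genes were lowest in both R403Q-EMPA libraries, while WT-CD and R403Q-CD overlapped. The summed level of 6 Schwann cell genes in members was 219 and 655 CPM in WT-CD, at 413 and 156 in R403Q-CD libraries and at 88.4 and 100 in R403Q-EMPA. Its member Cdh19 showed -3.79 ± 0.77 against WT-CD (adjusted p = 0.0800 in edgeR), with nearly all UMIs in sub-cluster 8. The macrophage sum was also lower in R403Q-EMPA (96.4 and 188 CPM) than in WT-CD (345 and 378), and R403Q-CD (248 and 20.2) overlapped R403Q-EMPA. The adipocyte sum was higher, at 664 and 597 CPM in R403Q-EMPA, against 394 and 346 in WT-CD and 331 and 358 in R403Q-CD. Most of it was Ghr (646 and 582 CPM in R403Q-EMPA). The summed level of 8 fibroblast genes was 1096 and 478, 541 and 376, and 882 and 447 CPM in the order WT-CD, R403Q-CD and R403Q-EMPA, so it overlapped between groups. All 6 tested fibroblast genes had higher values in R403Q-EMPA than in R403Q-CD, with 0 called and a median of 0.52 against -0.00043 over all genes. Of these, 2 had an unadjusted p under 0.05, where 3.19% of all genes were higher. Against WT-CD, 2 of the 6 were higher and 4 lower. With mixed nuclei removed, edgeR called 17 genes, of which Dnaja1, Hsph1, Nppa, Nrxn3, P4ha1, Scn3a and Stc1 were shared with the 13 called with all members. This set added Angpt2 (1.66 ± 0.32), Pdia6 (1.48 ± 0.30) and the cell cycle genes Top2a and Mki67, among 10 genes. With all members Top2a was 1.58 and Mki67 1.53 against WT-CD, and with mixed nuclei removed 5.14 and 6.17. Mki67 had 33 UMIs in WT-CD replicate 1, of which 31 lay in 1 nucleus, and 1 UMI with mixed nuclei removed. In R403Q-EMPA replicate 1, 1 nucleus held 32 of its 39 UMIs. The count of 13 was 131 without WT-CD replicate 1, 102 without WT-CD replicate 2, 28 without R403Q-EMPA replicate 2, 9 without R403Q-CD replicate 1, 5 without R403Q-CD replicate 2 and 2 without R403Q-EMPA replicate 1.

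Lists that describe lymphatic function held no gene that passed. Of 15 lymphatic identity genes outside the gate, 0 were called in any comparison by edgeR, with medians of -0.09 for the mutation, -0.07 for EMPA in mutant hearts and -0.12 for treated mutant against wild-type hearts. At an unadjusted p under 0.05 there were 1, 0 and 1 of them, all lower, which were Klhl4 and Mrc1, where 1.74%, 2.77% and 3.75% of all genes were lower. Mrc1 was -0.59 ± 0.23 against WT-CD, and -0.27 ± 0.21 without the mixed nuclei, whose sub-clusters held 17.4% of its UMIs. Leaving out 1 library gave -0.88 to -0.28 for Mrc1. Prox1 showed -0.17 ± 0.17 and -0.16 ± 0.17 in the last 2 comparisons. Likewise 0 genes were called of 9 tested growth ligands, 14 growth receptors, 13 valve and collector genes, 10 leukocyte traffic genes, 14 junction genes and 15 genes of lipid uptake and fatty acid use, where the count at an unadjusted p under 0.05 was at most 3 of a list in any comparison. The 3 were valve and collector genes higher in R403Q-EMPA than in WT-CD, of 13 tested, where 3.45% of all genes were, and, of 9 growth ligands, Svep1 and Angpt2 higher and Angpt1 lower in each EMPA comparison. Of all genes, 3.19% were higher and 2.77% lower against R403Q-CD, and 3.45% and 3.75% against WT-CD. The mixed sub-clusters held 85.3% of the Svep1 UMIs and 52.1% of the 48 Angpt1 UMIs, against 6.48% for Angpt2.

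Single genes of these and other lists are given as values that did not pass with all members. Angpt2, the context-dependent Tek ligand made by endothelium, stood at 80.9 and 67.0 CPM in WT-CD, at 76.6 and 132 in R403Q-CD libraries and at 249 and 123 in R403Q-EMPA, at 1.36 ± 0.33 against WT-CD (adjusted p = 0.142 in edgeR) and 0.86 ± 0.32 against R403Q-CD. Without R403Q-EMPA replicate 1 these were 0.72 and 0.22, and without R403Q-CD replicate 1 the second was 0.52. Against WT-CD it passed without R403Q-EMPA replicate 2, at 1.73 and an adjusted p of 0.0344 in edgeR, and with mixed nuclei removed, at 1.66 ± 0.32 and 0.0332. Against WT-CD, Fn1, a matrix component of valves, showed 1.46 ± 0.33, Celsr1 0.88 ± 0.26 and Calcrl 0.48 ± 0.17. Fn1 was 0.89 to 1.78 when 1 library was left out. Of 14 growth receptors, 1 was higher and 1 lower at an unadjusted p under 0.05 against WT-CD, where 3.45% and 3.75% of all genes were. Of 13 tested matrix and basement membrane genes, 9 were higher and 4 lower against WT-CD, with 0 called and a median of 0.05 against -0.01 over all genes. At an unadjusted p under 0.05, 4 were higher and 1 lower, where 3.45% and 3.75% of all genes were. The basement membrane collagens Col4a1 (0.94 ± 0.17, adjusted p = 0.0649) and Col4a2 (0.75 ± 0.20, adjusted p = 0.203) did not pass in edgeR, although both R403Q-EMPA libraries were above both WT-CD libraries (584 and 633 against 315 and 311 CPM for Col4a1). Postn showed 2.05 ± 0.42, with 52.1% of its UMIs in mixed nuclei, and 0.96 ± 0.57 without them.

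Cycling members were few. Nuclei with at least 2 UMIs over Mki67, Top2a, Knl1 and Cenpf numbered 3 and 0 for WT-CD, 2 and 0 for R403Q-CD, then 7 and 4 for R403Q-EMPA, and these 16 nuclei held 468 of the 489 UMIs of the 4 genes. All 7 tested cell cycle genes had higher values in R403Q-EMPA in both comparisons, with medians of 1.25 and 1.26, and edgeR called 0 of them. At an unadjusted p under 0.05, 2 were higher against R403Q-CD, Top2a (2.00 ± 0.91) and Diaph3 (1.34 ± 0.44), where 3.19% of all genes were. Top2a was 8.30 without R403Q-CD replicate 1 and 0.86 without R403Q-CD replicate 2, and 1 nucleus held 29 of its 41 UMIs in R403Q-EMPA replicate 1. With mixed nuclei removed there were 1, 0, 1, 0, 6 and 4 such nuclei in the same order of libraries.

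Whether members moved apart from blood endothelial nuclei was tested as the difference of log2 fold changes between the 2 kinds of nuclei, with the library as a block. For R403Q-CD against WT-CD, edgeR called 0 of 13077 genes (0%), with 669 at an unadjusted p under 0.05. The smallest p belonged to Sema3a, a repellent guidance ligand, at 0.95 ± 0.16 (adjusted p = 0.111), then Kcnma1 and Slfn3. For R403Q-EMPA against R403Q-CD there were 44 calls (0.336%), and for R403Q-EMPA against WT-CD 33 (0.252%). With mixed nuclei removed the counts were 68 and 75, of which 28 and 15 were shared with the calls over all members.

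Hsph1 and P4ha1 were not among these calls. Hsph1 rose by 3.58 ± 0.24 in blood endothelial nuclei against R403Q-CD (adjusted p = 0.000607 in edgeR), and its difference, members minus blood endothelial nuclei, was -1.04 ± 0.34 (adjusted p = 0.386). P4ha1 rose by 1.82 ± 0.14 there, with a difference of -0.40 ± 0.19 (adjusted p = 0.647 in edgeR). In fibroblast-type nuclei Hsph1 stood at 30.6 and 28.3, 45.6 and 33.0, and 191 and 182 CPM in the order WT-CD, R403Q-CD and R403Q-EMPA, and in endocardial nuclei at 35.0 and 27.7, 52.4 and 41.6, and 184 and 140 CPM. The EMPA libraries were the highest in each kind of nucleus examined.

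Some genes moved in blood endothelial nuclei and not detectably in members. Meis2, a homeobox transcription factor, rose by 1.55 ± 0.15 in blood endothelial nuclei (adjusted p = 0.00486 in edgeR) and showed -0.20 ± 0.18 in members against R403Q-CD. It stood at 534 and 594, 606 and 547, and 551 and 454 CPM in members and at 85.3 and 74.2, 38.4 and 50.8, and 135 and 132 CPM in blood endothelial nuclei. Ccdc141 rose by 2.06 ± 0.18 in blood endothelial nuclei against WT-CD (adjusted p = 0.00195 in edgeR) and showed -0.31 ± 0.21 in members. Edil3, an integrin ligand of endothelium, rose by 2.71 ± 0.33 in blood endothelial nuclei against R403Q-CD (adjusted p = 0.0120 in edgeR) and showed -0.99 ± 0.35 in members. The difference was called for each of the 3 genes with and without the mixed nuclei. Col8a1 and Pknox2 were also among the smallest p, at 3.595 ± 0.41 for Col8a1 against R403Q-CD and 3.85 ± 0.50 for Pknox2 against WT-CD, and neither difference was called without the mixed nuclei (0.52 and -0.22).

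In Scn3a the difference ran the other way, and the gene was again chosen after its values were seen. It was nearly absent from blood endothelial nuclei, at 1.60 to 5.95 CPM, against 180 to 499 CPM in members. The difference of log2 fold changes was 2.61 ± 0.38 for R403Q-EMPA against R403Q-CD (adjusted p = 0.00508 in edgeR) and 2.29 ± 0.41 against WT-CD (adjusted p = 0.0241), and 2.66 and 2.57 without the mixed nuclei. The 2.61 was made up of 1.11 ± 0.20 in members (adjusted p = 0.0940) and -1.43 ± 0.45 in blood endothelial nuclei (adjusted p = 0.244 in edgeR), and the 2.29 of 1.17 ± 0.20 and -1.01 ± 0.47, so a large part came from a gene that is near 0 in blood endothelial nuclei. It was called in 4 of the 6 fits that left out 1 library in each comparison. Prox1 was called in the first of these comparisons at -2.13 ± 0.42 (adjusted p = 0.0379 in edgeR), where its few UMIs in blood endothelial nuclei moved from 2.79 and 4.65 CPM in R403Q-CD to 19.7 and 8.62 CPM in R403Q-EMPA, while members had 1047 and 1173 and then 1064 and 924 CPM.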

How the data were processed

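Libraries were made from nuclei, for which 50 mg of frozen ventricular tissue was used per sample. The deposited files hold raw UMI counts per gene and barcode, which the authors made with Cell Ranger 8.0.1 against GRCm39 according to the submitters' processing notes, and 33696 genes were listed. Members were gated from these counts and their UMIs were summed per library, with 398349 to 1006296 UMIs per library. Nuclei of 1 library are not replicates, so all tests were over 6 libraries, 2 in each of 3 groups. The members and gene lists were chosen with earlier results of these data known.

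Sums were tested with edgeR 4.0.16 (R 4.3.3) by quasi-likelihood, with all 6 libraries in 1 fit, its default filter on low counts, TMM scaling and Benjamini-Hochberg adjustment over all genes tested (threshold 0.05). The difference from blood endothelial nuclei was an interaction term with the library as a block. Doublets were predicted per library with Scrublet in scanpy 1.11.5, and members were clustered with the Leiden method on 1000 variable genes and 15 components at resolution 0.5. On simulated data, 32% to 35% of genes changed 2-fold and 82% to 86% of those changed 4-fold were recovered over the 3 comparisons. There all libraries shared pooled means and 1 trend of spread, while the real WT-CD libraries differed more than the other pairs. The recovery in the real comparisons is therefore not known from it. Shares were compared by exact permutation.

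Genes were named as follows. The gate genes and genes of the lists could be named in every comparison. For each comparison, up to 8 called genes per direction with the largest change and no overlap between groups were named, and where under 5 were called, up to 6 with the smallest p, said not to pass. Against blood endothelial nuclei the 15 highest and 10 lowest genes were named, and for the interaction the 3 with the smallest p. Alternatives were other scalings and filters, DESeq2 1.42.0, other gates, predicted doublets removed, no block, and each library left out. Removal of mixed nuclei was added after seeing the data. Results for some genes that the rule names are not reported here.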

Additional observations from a re-analysis of the deposited data

Results flagged for a closer look

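In 6 cases the change in lymphatic endothelial nuclei differed from that in blood endothelial nuclei of the same libraries by the interaction test in edgeR, and these were the genes with the smallest p. For R403Q-EMPA against R403Q-CD, the difference of log2 fold changes, lymphatic minus blood endothelial, was 3.595 for Col8a1, -3.63 for Edil3 and -1.75 for Meis2, each with an adjusted p of 0.000723 in edgeR. For R403Q-EMPA against WT-CD it was -2.34 for Ccdc141 (adjusted p = 0.00155 in edgeR), 2.87 for Col8a1 and 3.85 for Pknox2 (adjusted p = 0.00270 for both). All 6 were called in each of the 6 fits that left out 1 library. With mixed nuclei removed, Edil3 (-3.90), Meis2 (-1.94) and Ccdc141 (-2.45) kept their size, while Col8a1 was 0.52 and 0.07 and Pknox2 was -0.22.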

How the results depend on the processing

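With 2 libraries per group, the counts of called genes moved widely. Without the filter on low counts, 32, 151 and 209 genes were called in lymphatic endothelial nuclei for the mutation (R403Q-CD against WT-CD), for EMPA (R403Q-EMPA against R403Q-CD) and for both (R403Q-EMPA against WT-CD), and leaving out 1 library gave 0 to 34, 0 to 87 and 2 to 131. For R403Q-EMPA against R403Q-CD, the count was 6 with predicted doublets removed, 5 under the stricter gate, 5 with mixed nuclei removed and 46 with only the 4 libraries compared. For R403Q-EMPA against WT-CD it was 5 without the mitochondrial filter and 8 with only 4 libraries. For the difference from blood endothelial nuclei, the counts without the filter were 59, 166 and 172, and leaving out 1 library gave 0 to 30, 15 to 176 and 23 to 171. Without the library block they were 4 and 2 in the 2 EMPA comparisons, with mixed nuclei removed 68 and 75, and with predicted doublets removed 1 for R403Q-CD against WT-CD and 63 for R403Q-EMPA against WT-CD. With mixed nuclei removed, the sign turned among the named results for Col8a1 (-0.006319) and Ccn2 (-0.3246) in R403Q-EMPA against R403Q-CD and for the difference of Pknox2 from blood endothelial nuclei (-0.2188) in R403Q-EMPA against WT-CD. The causes were not tested. Of gated endothelial nuclei, the differences in share were -2.86, 0.820 and -2.04 percentage points. Of all nuclei, leaving out 1 library gave -0.8545 to 0.106 points for the share of lymphatic endothelial nuclei, R403Q-CD against WT-CD. It gave -0.1456 to 0.8467 for the share of lymphatic endothelial nuclei, R403Q-EMPA against R403Q-CD, and -0.5198 to 0.4725 for the share of lymphatic endothelial nuclei, R403Q-EMPA against WT-CD. No paired analysis was possible because the labels give the groups no shared replicate number, and the numbers 1 and 2 used here only name libraries.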
